A study of Mus musculus with 13 samples.

Results

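Wild-type SLAM cells were compared with wild-type KLS cells, both flow-sorted from the bone marrow of mice of strain Bl/6 Taconic. The comparison used 6 of the 13 arrays of the study, chosen by their titles: 2 of WT SLAM cells from mice of 6 weeks and 4 of WT KLS cells, of which replicates 1 and 2 came from mice of 13 weeks and replicates 3 and 4 from mice of 12 weeks. Each array held the RNA of the marrow of 1 mouse, and 20 ng of total RNA was amplified before hybridisation to Affymetrix mouse exon arrays. The rest of the study were mice of the mCG-PR N17 genotype, which express the PML-RARA fusion from the murine Ctsg locus. Their SLAM cells (7 weeks, n = 2) and KLS cells (6 weeks, n = 3) gave a second contrast of the same populations that shares no array with the first. Their KLS cells of 13 weeks (n = 2) were used only for age and in the joint fit. The wild-type mice were littermate controls without the fusion. The sources used here do not give the gates of either population, and in the wild-type arrays the population and the age of the mice cannot be told apart.

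In mouse marrow, KLS names cells that carry c-Kit and Sca-1 and lack the surface proteins of mature lineages. That compartment holds the stem cells and the multipotent progenitors that follow them. SLAM names a sort on receptors of the signalling lymphocyte activation molecule family, of which CD150 (gene Slamf1) is carried by long-term stem cells while CD48 and the cytokine receptor Flt3 appear on progenitors. Long-term stem cells are known to divide rarely, and multipotent progenitors to divide often and to begin the transcription of lymphoid and myeloid genes.

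A gene value was the median of the log2 intensities of its probe sets, each of which queries a stretch of the transcript. A difference is WT SLAM minus WT KLS on the log2 scale, so 1 unit is a doubling, and values after ± are standard errors from limma. A gene passed where its limma p, adjusted by Benjamini-Hochberg over 10575 tested genes, was under 0.05. The SLAM arrays stood further apart from each other than the KLS arrays. The correlation across genes was 0.827 between the 2 WT SLAM arrays and 0.95 to 0.966 between pairs of WT KLS arrays, and SLAM arrays entered the fit with lower weight (0.4498 against 1.426). WT SLAM replicate 2 lay at 46.78 on the second principal component of all arrays (12.9% of the variance), with every other array between -21.61 and 2.92. Values without it, and without replicate 1, are given beside the results that turn on them.

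The labels were checked first against the marker genes of the sort. Slamf1 was 7.68 and 7.47 on the WT SLAM arrays and 6.03, 6.24, 6.00 and 5.19 on the WT KLS arrays. Cd48 was 4.70 and 5.56 in SLAM and 8.98, 9.16, 8.89 and 8.28 in KLS. Flt3 was 7.65 and 7.47 in SLAM and 10.31, 10.11, 10.26 and 10.23 in KLS. These genes separated the groups without overlap. Of them Slamf1 had the weakest call, with a difference of 1.71 ± 0.41 (adjusted p = 0.0363) and 4 of its 8 probe sets higher without overlap. Its difference was 1.61 without SLAM replicate 1 and 1.81 without replicate 2, and it did not pass with either left out. In mCG-PR cells the same contrast was 0.96 and did not pass (adjusted p = 0.158). Slamf1 and Cd48 went in the direction that the name of the sort implies and are read as a check of the labels wherever they are counted below. Whether Flt3 was part of either gate is not known. The other antigens of the sort panel divided into those shared by the groups and those that differed. Kit, the receptor for stem cell factor, was 9.71 and 10.09 in SLAM and 10.01 to 10.26 in KLS. Ly6a, which encodes Sca-1, was 8.75 and 9.63 in SLAM and 9.10 to 9.89 in KLS. Neither passed, with differences of -0.25 ± 0.24 and -0.30 ± 0.46, nor did the pan-leukocyte gene Ptprc (-0.25 ± 0.23) or the megakaryocyte integrin Itga2b (0.11 ± 0.25).

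Further SLAM family genes were lower in SLAM cells. Cd244a, the receptor of CD48, was 6.46 and 6.63 in SLAM and 7.49 to 8.18 in KLS, a difference of -1.36 ± 0.30 (adjusted p = 0.0238). Ly9 was 6.89 and 6.36 in SLAM and 8.06 to 8.33 in KLS, a difference of -1.55 ± 0.32 (adjusted p = 0.0184). Cd34, a sialomucin of progenitors and a commonly used boundary within the KLS gate, was 7.59 and 8.79 in SLAM against 10.25 to 10.56 in KLS, a difference of -2.21 ± 0.40 (adjusted p = 0.00882). These genes also showed no overlap between the groups. With the first SLAM array left out the Cd34 difference was -1.61 and did not pass (adjusted p = 0.143), and with the second left out it was -2.82 (adjusted p = 0.0223). Cd244a and Ly9 did not pass with either SLAM array left out, with adjusted p from 0.0602 to 0.204. Procr, which encodes the endothelial protein C receptor of stem cells, was 8.80 on SLAM replicate 1 and 7.00 on replicate 2, and 6.43 to 7.55 in KLS. Its groups overlapped and it did not pass in wild-type cells (0.95 ± 0.48, adjusted p = 0.315), while in mCG-PR cells the same contrast was 2.55 (adjusted p = 0.00425). Il7r, the interleukin-7 receptor of lymphoid progenitors, was 5.62 and 5.61 in SLAM and 6.15 to 7.78 in KLS, without overlap and without passing (-1.21 ± 0.48, adjusted p = 0.196).

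**Figure D1:**
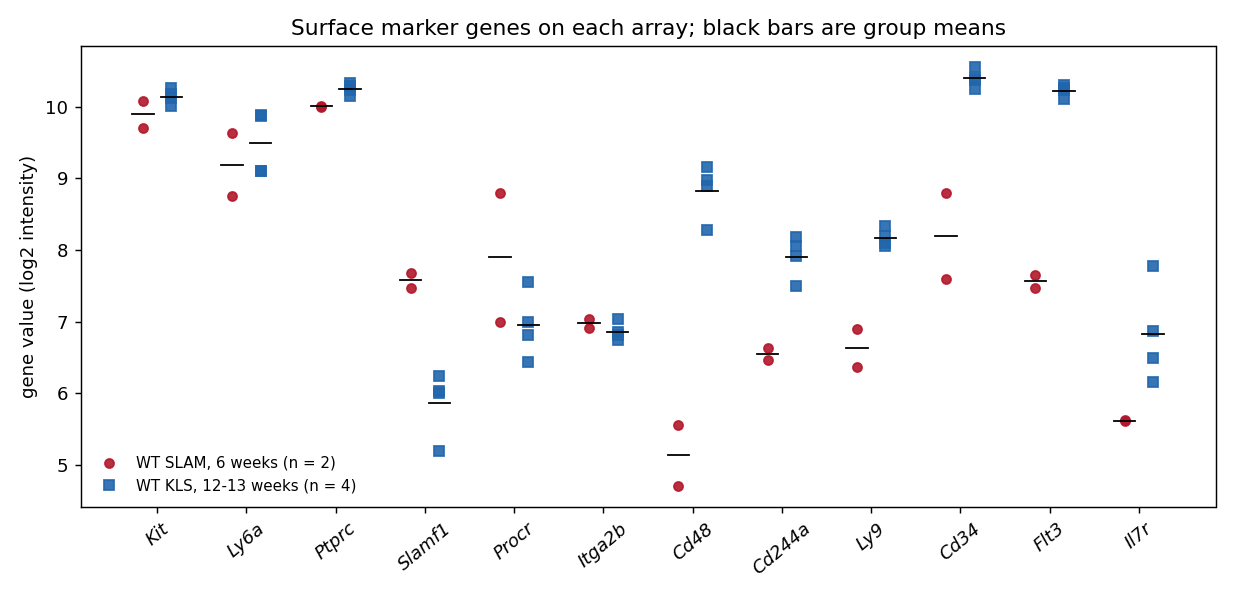
Log2 intensity of 12 surface marker genes on each array of WT SLAM cells (circles, n = 2) and WT KLS cells (squares, n = 4), with group means as black bars. Slamf1 is above all KLS arrays in both SLAM arrays, Cd48, Cd244a, Ly9, Cd34, Flt3 and Il7r are below, and the 2 SLAM arrays differ most for Procr, at 8.80 and 7.00.

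Across the transcriptome the passing genes were mostly lower in SLAM cells. Of 10575 tested genes, 330 passed (3.12%), 37 of them higher in WT SLAM (0.35%) and 293 lower (2.77%). The median difference was 1.46 among the higher genes and -1.39 among the lower, and -0.05 over all tested genes. Differences of at least 2 were found for 2 of the higher and 38 of the lower genes. In bulk arrays fewer cells of a type and less RNA per cell cannot be told apart. The groups did not overlap for any of the 330 genes, which was also so for 12.9% (higher) and 22.3% (lower) of all tested genes.

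Lower genes were more frequent among genes of high level. Ordered by mean level over all 13 arrays and divided into 4 equal parts, the tested genes had median differences of 0.12, 0.03, -0.15 and -0.30 from the lowest part to the highest. The highest part held 146 of the genes that passed as lower and 5 of those that passed as higher. KLS arrays outnumber SLAM arrays in that mean, so the ordering itself places genes high in KLS cells further up. The share of the trend that this makes was not tested. The median intensity of the SLAM arrays was 98.6 and 103.5 and that of the WT KLS arrays 103.7 to 112.2; the part of array level in the split was tested only through the scalings below. With the gene values quantile-normalised, 24 genes were higher and 95 lower, and with array medians subtracted 43 were higher and 271 lower.

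In simulated data with a like spread, more of the genes that passed were false than the threshold states. The count in the measured data depends on how the spread of the SLAM arrays is treated. With the error estimated separately for SLAM and KLS arrays, 142 genes passed (1.34%), and 115 of the 330 were among them, 16 higher and 99 lower. Without SLAM replicate 1, 94 genes passed, and without replicate 2, 98 passed. In all, 18 genes passed with all arrays and with either SLAM array left out. Serpina3g was the only higher gene of those 18, and the lower ones included Dntt, Tespa1, Cd48, Ccl3, Cdk6, Plek, Il1r1, Flt3 and Satb1.

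**Figure D2:**
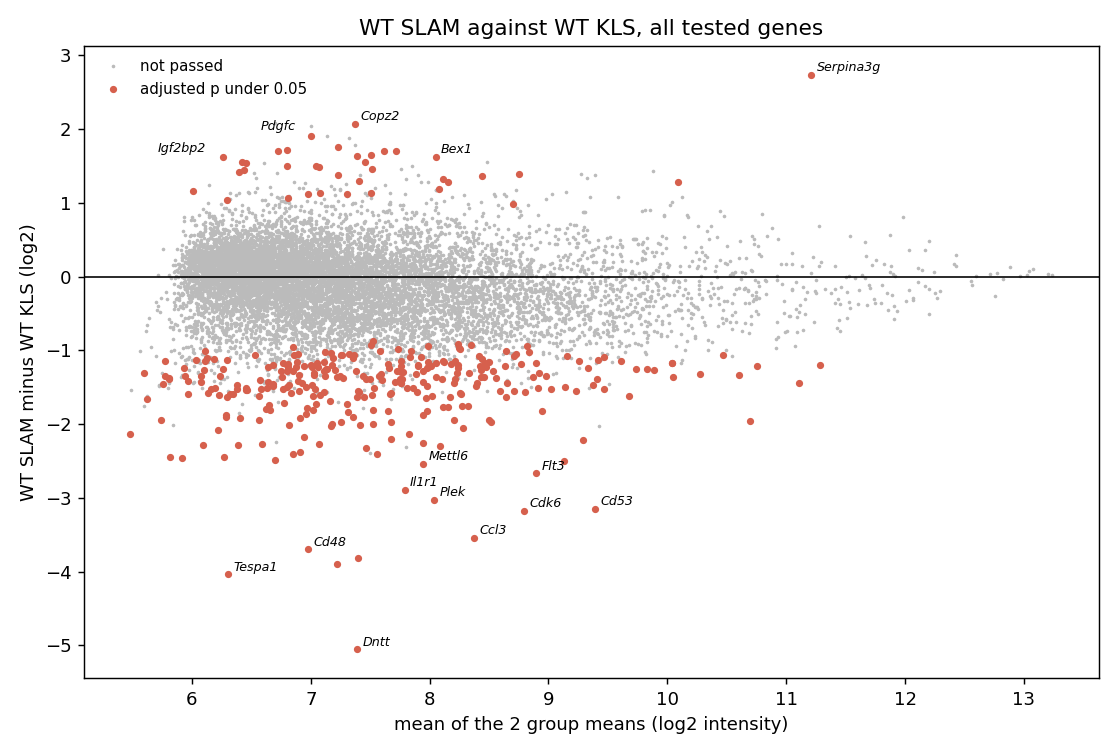
Difference between WT SLAM and WT KLS (log2) against the mean of the group means (log2 intensity) for 10575 genes, with genes of adjusted p under 0.05 in red. The named genes run from Serpina3g at 2.74 to Dntt at -5.05, and the red genes below zero (293) outnumber those above (37).

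The genes lowest in SLAM cells were led by lymphoid genes. Dntt, the terminal transferase that adds bases to rearranging antigen receptor genes, was 4.93 and 4.78 in SLAM and 9.40, 9.97, 10.31 and 9.99 in KLS. The difference was -5.05 ± 0.38 (adjusted p = 9.68e-06), and all 13 probe sets of the gene were lower in SLAM without overlap. Of the probe sets of all tested genes 18.1% were so, and 58.7% of those of genes that passed as lower. Probe sets read the same RNA on the same arrays and are not replicates. Tespa1, a signalling protein of developing T cells, was 4.05 and 4.53 in SLAM and 8.70, 8.19, 8.09 and 8.31 in KLS (-4.03 ± 0.35, adjusted p = 3.57e-05). No fold is given for either gene, because the SLAM values lie under the log2 6.00 filter and near the 3.49 to 5.07 that the Y-linked genes Kdm5d and Eif2s3y read on the 3 mCG-PR arrays where they were low. Both genes were low on each SLAM array and high on each KLS array, and both kept their call with either SLAM array left out. Satb1, a chromatin organiser of lymphoid cells, was 7.59 and 8.17 in SLAM and 10.27 to 10.52 in KLS (-2.50 ± 0.32, adjusted p = 0.000989). Cd53, a leukocyte tetraspanin, was 7.44 and 8.20 in SLAM and 10.88 to 11.01 in KLS (-3.15 ± 0.50, adjusted p = 0.00501). The Cd53 difference was -2.77 without SLAM replicate 1 and then did not pass (adjusted p = 0.0645).

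The gene lists here and below were chosen with earlier results of these data known, so their shares are descriptions and not tests. Of 35 genes listed as lymphoid-primed, 28 were measured and 26 tested. Of these, 5 were lower (beside 2.77% of all tested genes) and 0 higher, and the 5 were Dntt, Tespa1, Cd53, Flt3 and Satb1. Flt3 may have been part of a gate. The list median was -0.52, beside -0.05 for all tested genes, and 22 members had a negative difference. It was -0.33 without SLAM replicate 1 and -0.80 without replicate 2. Mean log2 level of the list was 6.74 and 7.26 on the SLAM arrays and 7.86 to 8.23 on the WT KLS arrays.

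Other genes with large negative differences had varied roles. Ccl3, a chemokine, was 6.80 and 6.40 in SLAM and 9.73, 10.04, 10.14 and 10.63 in KLS, 11.6-fold lower (-3.54 ± 0.48, adjusted p = 0.00163). Plek, which encodes the protein kinase C substrate pleckstrin, was 6.03 and 7.02 in SLAM and 9.38 to 9.77 in KLS, 8.14-fold lower (adjusted p = 0.000412). Among 35 tested cytokine receptor genes 4 were lower and 1 higher (beside 2.77% and 0.35% of all tested genes), with a list median of -0.16 that was 0.0036 without SLAM replicate 1 and -0.08 without replicate 2. The lower ones were Il1r1, the interleukin-1 receptor, Il18r1, Ifnar2 (a chain of the type I interferon receptor) and Flt3, and the higher one was Tek, the angiopoietin receptor. Il1r1 was 6.55 and 6.14 in SLAM and 9.42, 9.57, 8.84 and 9.11 in KLS, 7.42-fold lower (-2.89 ± 0.35, adjusted p = 0.000799). Il18r1 was 5.48 and 5.97 in SLAM and 7.38 to 7.64 in KLS (-1.80 ± 0.32, adjusted p = 0.00829), and Ifnar2 was 8.11 and 8.40 in SLAM and 9.64 to 9.86 in KLS (-1.52 ± 0.26, adjusted p = 0.00758). Il18r1 and Ifnar2 did not pass without SLAM replicate 1, at adjusted p of 0.108 and 0.0882. Mettl6, a transfer RNA methyltransferase, was 7.43 and 5.92 in SLAM and 8.99 to 9.53 in KLS (-2.54 ± 0.63, adjusted p = 0.0396), and did not pass with either SLAM array left out (adjusted p 0.0692 to 0.371).

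Some genes of early myeloid cells were lower. Of 31 tested genes of early granules and myeloid progenitors, 4 were lower (beside 2.77% of all tested genes) and 0 higher, with a list median of -0.30 that was -0.06 without SLAM replicate 1 and -0.44 without replicate 2. Nkg7, a granule protein of cytotoxic cells, was 6.14 and 7.00 in SLAM and 8.38 to 9.32 in KLS (-2.20 ± 0.42, adjusted p = 0.0126). Cst7, a cystatin, was 5.42 and 6.28 in SLAM and 7.54 to 8.66 in KLS (-2.18 ± 0.52, adjusted p = 0.034). Cd93, a C-type lectin-like receptor, was 7.40 and 7.30 in SLAM and 8.63 to 9.33 in KLS (-1.64 ± 0.29, adjusted p = 0.00805). Plac8 stood apart from these because the SLAM arrays disagreed, at 8.45 and 10.98 against 11.40 to 11.87 in KLS (-1.96 ± 0.46, adjusted p = 0.0323). Its difference was -0.69 without replicate 1 (adjusted p = 0.535) and -3.22 without replicate 2. Without SLAM replicate 1, Nkg7, Cst7 and Cd93 differed by -1.77, -1.74 and -1.69 and did not pass either. Without replicate 2 they differed by -2.64, -2.61 and -1.58, and Cst7 and Cd93 did not pass there. In a separate list of monocyte, macrophage and dendritic genes, 2 of 23 tested were lower and 0 higher. The list median was 0.04, with 13 positive and 10 negative differences. The lower ones were Flt3 and Tlr7, a receptor for single-stranded RNA in dendritic and myeloid cells. Tlr7 was 5.29 and 5.76 in SLAM and 6.77 to 7.33 in KLS (-1.59 ± 0.41, adjusted p = 0.045). It was -1.36 without SLAM replicate 1 and -1.83 without replicate 2, and did not pass with either left out.

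Genes of cell division mostly had negative differences, and few of them passed. Cdk6, the G1 kinase that drives exit from quiescence, was 7.56 and 6.85 in SLAM and 10.71, 10.29, 10.25 and 10.25 in KLS. It was 9.03-fold lower (-3.18 ± 0.33, adjusted p = 0.00014), and differed by -3.53 without SLAM replicate 1 and -2.82 without replicate 2. All 10 probe sets were lower without overlap. That was so for 18.1% of the probe sets of all tested genes and 58.7% of those of genes that passed as lower. Of 34 tested genes of G1 control and quiescence Cdk6 was the only gene to pass. The median of that list was -0.15 (-0.36 without SLAM replicate 2). Of 47 tested mitotic genes 2 were lower, near the 2.77% of all tested genes, and 0 higher. At an unadjusted p under 0.05, 23 were lower (beside 13.9% of all tested genes), with no weights 15 (beside 9.22%) and with separate errors 3 (beside 1.12%). The median difference of the list was -0.73, 46 of the 47 were negative, and 22 did not overlap on the lower side (46.8%, beside 22.3% of all tested genes). Of 44 tested DNA replication genes 3 were lower and 0 higher, with a median of -0.47 and 20 without overlap on the lower side (45.5%); 16 were lower at an unadjusted p under 0.05 (beside 13.9%).

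Ect2, the exchange factor that positions the cleavage furrow, was 5.54 and 5.97 in SLAM and 7.11 to 7.76 in KLS (-1.62 ± 0.32, adjusted p = 0.0154). Spc25, a subunit of the NDC80 kinetochore complex, was 5.65 and 6.82 in SLAM and 7.20 to 7.84 in KLS (-1.33 ± 0.33, adjusted p = 0.0385). Gins1 and Gins4, subunits of the GINS complex of the replicative helicase, differed by -1.61 ± 0.34 (adjusted p = 0.0228) and -1.44 ± 0.27 (adjusted p = 0.0123). Prim1, the catalytic subunit of primase, was 7.53 and 7.71 in SLAM and 8.51 to 9.28 in KLS (-1.24 ± 0.31, adjusted p = 0.0409). None of these 5 genes overlapped between groups. Without SLAM replicate 1 none of the 5 passed, with adjusted p from 0.0562 to 0.455 and Spc25 at -0.75. Without replicate 2 Spc25 passed alone (-1.91, adjusted p = 0.0408).

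The promoters of cell cycle genes are known to hold CCAAT boxes and the cell-cycle homology region (CHR) for mitotic genes, and E2F sites for replication genes. The 250 bases before the start of Ect2, Spc25 and Prim1 are shown because these genes passed and the 3 hold different sets of these motifs. The sequences are from RefSeq (build GRCm38.p6), 5′ to 3′ on the strand of the gene, at chr3:27153879-27154128 (minus strand), chr2:69206214-69206463 (minus strand) and chr10:128014965-128015214 (plus strand), with matches on the gene's strand to the CCAAT box, the CHR (TTTGAA) and the E2F core (TTCCCGC) in capitals.
Ect2: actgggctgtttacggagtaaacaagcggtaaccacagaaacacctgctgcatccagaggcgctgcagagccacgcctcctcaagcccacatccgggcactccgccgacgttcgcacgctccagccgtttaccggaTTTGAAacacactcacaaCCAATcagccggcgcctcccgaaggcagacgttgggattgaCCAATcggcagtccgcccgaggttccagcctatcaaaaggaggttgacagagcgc
Spc25: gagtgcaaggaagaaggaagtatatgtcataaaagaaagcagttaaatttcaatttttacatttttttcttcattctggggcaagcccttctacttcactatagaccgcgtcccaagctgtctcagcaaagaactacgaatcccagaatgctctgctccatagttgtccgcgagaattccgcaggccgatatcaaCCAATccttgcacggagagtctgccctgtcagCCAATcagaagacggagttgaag
Prim1: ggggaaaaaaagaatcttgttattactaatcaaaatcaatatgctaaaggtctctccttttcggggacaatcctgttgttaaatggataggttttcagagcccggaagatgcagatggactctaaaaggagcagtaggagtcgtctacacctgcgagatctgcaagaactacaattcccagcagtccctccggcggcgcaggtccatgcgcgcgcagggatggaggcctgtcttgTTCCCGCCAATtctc
Ect2 had a CHR starting 114 bases before the start and CCAAT boxes 96 and 55 bases before it. Spc25 had CCAAT boxes 55 and 23 bases before the start, and Prim1 an E2F core 15 bases before it, which shares a base with a CCAAT box 9 bases before it. Of 39 mitotic genes with a promoter sequence, 71.8% held CCAAT and 30.8% held TTTGAA on either strand, against 36.2% and 10.6% of the 8581 tested genes with a promoter. TTCCCGC was in 0 of the 39 mitotic promoters, in 28.6% of 35 replication promoters and in 6.69% of the tested genes. Among 245 genes that passed as lower, CCAAT was in 39.6%, TTTGAA in 13.5% and TTCCCGC in 6.53%. The shares describe letters in this window, and no promoter binding was measured here.

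Genes of ribosome assembly mostly had negative differences as well. Of 35 tested ribosome biogenesis genes 3 were lower (beside 2.77% of all tested genes) and 0 higher, with a median of -0.47, 30 negative members and 16 that did not overlap on the lower side (45.7%, beside 22.3%). Ddx21, a nucleolar helicase, was 7.13 and 7.08 in SLAM and 8.42 to 8.83 in KLS (-1.51 ± 0.29, adjusted p = 0.0128). Gnl3, which encodes nucleostemin, was 8.99 and 9.09 in SLAM and 10.03 to 10.36 in KLS (-1.15 ± 0.23, adjusted p = 0.0162). Nop14, a factor of small-subunit assembly, was 6.84 and 7.47 in SLAM and 8.25 to 8.50 in KLS (-1.21 ± 0.26, adjusted p = 0.0227). These 3 calls were lost without SLAM replicate 1 (adjusted p 0.0863 to 0.249) and without replicate 2 (0.0515 to 0.112). The 29 tested ribosomal protein genes had a median of -0.03 and none passed, with 2 at an unadjusted p under 0.05 (beside 17.8% of all tested genes). Their extremes were Rps15a at -0.99 ± 0.33 and Rpl31 at 1.12 ± 0.41. Of 44 oxidative phosphorylation genes only Ndufb3, a subunit of complex I, passed (-1.33 ± 0.32, adjusted p = 0.037), with a list median of -0.23 (-0.07 without SLAM replicate 1 and -0.40 without replicate 2). It was 10.56 on SLAM replicate 1 and 9.32 on replicate 2, against 11.05 to 11.43 in KLS, and -0.71 without replicate 2 (adjusted p = 0.483).

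**Figure D3:**
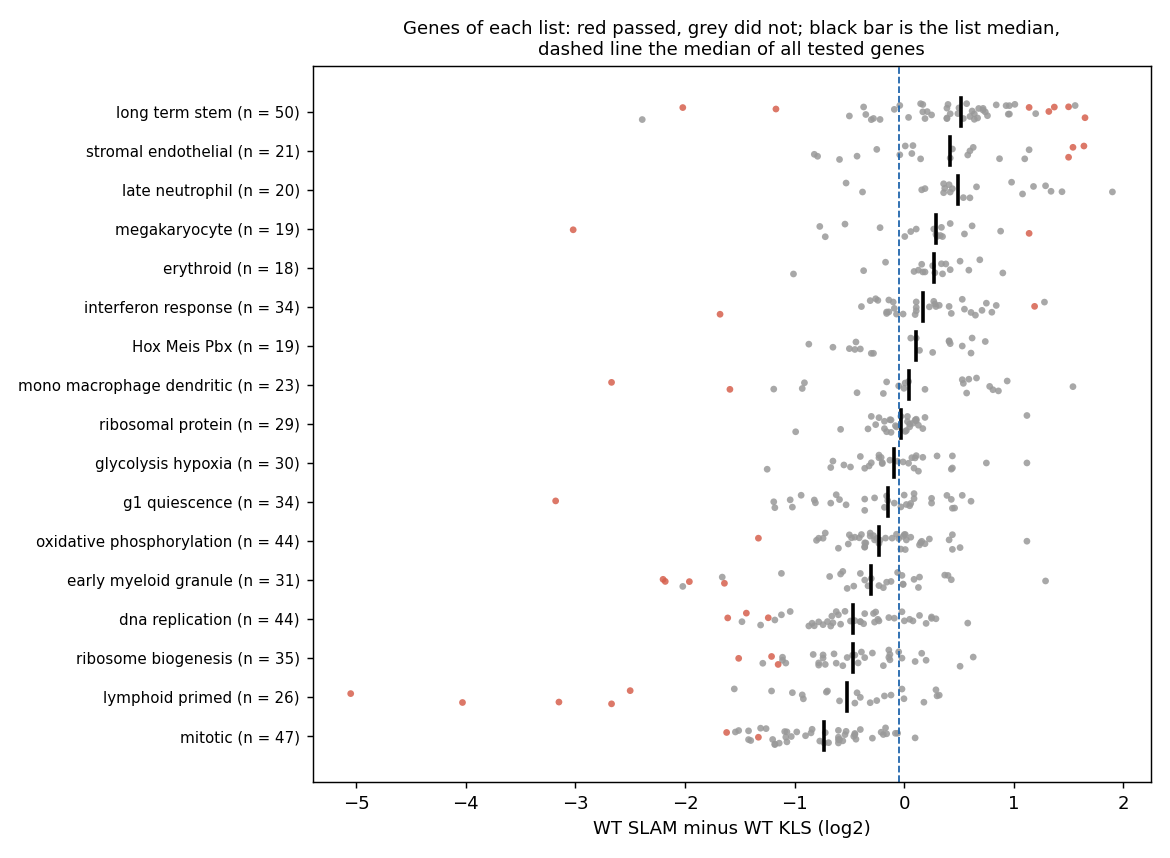
Difference between WT SLAM and WT KLS (log2) of every tested gene in 17 gene lists, with genes that passed in red, list medians as black bars and the median of all tested genes (-0.05) as a dashed line. Medians run from 0.52 for long-term stem genes to -0.73 for mitotic genes, and most members of each list did not pass.

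Genes higher in SLAM cells were led by Serpina3g, a protease inhibitor of leukocytes. It was 12.49 and 12.67 in SLAM and 10.06, 9.82, 9.82 and 9.67 in KLS, 6.67-fold higher (2.74 ± 0.25, adjusted p = 5.07e-05). The difference was 2.82 without SLAM replicate 1 and 2.65 without replicate 2. All 4 probe sets of the gene were higher without overlap. That was so for 11.3% of the probe sets of all tested genes and 62.2% of those of genes that passed as higher. The Serpina3 family has near-identical copies, so the share of signal from relatives of this gene is uncertain. Pdgfc, a platelet-derived growth factor, was 7.91 and 8.01 in SLAM and 5.41 to 6.59 in KLS (1.91 ± 0.42, adjusted p = 0.0253). Gda, guanine deaminase, was 8.02 and 8.21 in SLAM and 6.10 to 6.79 in KLS (1.76 ± 0.45, adjusted p = 0.0438). Igf2bp2, an RNA-binding protein, was 7.10 and 7.04 in SLAM and 5.17 to 6.10 in KLS (1.62 ± 0.38, adjusted p = 0.0323). In these 3 genes the SLAM arrays lay close together, but with 1 SLAM array left out none of the 3 passed (adjusted p 0.128 to 0.241).

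Other genes among the highest differed between the SLAM arrays. Copz2, a coatomer subunit, was 7.57 and 9.25 in SLAM and 6.07 to 6.52 in KLS (2.07 ± 0.41, adjusted p = 0.0166). Clec7a, the fungal glucan receptor dectin-1, was 7.03 and 8.30 in SLAM and 5.53 to 6.35 in KLS (1.72 ± 0.41, adjusted p = 0.0329). Rras, a small GTPase, was 8.09 and 9.05 in SLAM and 6.62 to 7.00 in KLS (1.71 ± 0.34, adjusted p = 0.0174), and Slfn2 was 7.90 and 9.03 in SLAM and 6.45 to 7.11 in KLS (1.70 ± 0.41, adjusted p = 0.034). These 4 genes were higher on replicate 2, and without that array they did not pass, at differences of 1.24, 1.09, 1.22 and 1.14. Bex1 had the opposite order, 9.78 and 7.95 in SLAM against 7.00 to 7.37 in KLS (1.63 ± 0.34, adjusted p = 0.0213), and without replicate 1 it was 0.71 (adjusted p = 0.35).

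Genes of long-term stem cells mostly had positive differences, in a list chosen with earlier results of these data known. Of 50 tested, 5 were higher and 2 lower (beside 0.35% and 2.77% of all tested genes), the list median was 0.52, and 30 lay above all KLS arrays on both SLAM arrays (60%, beside 12.9% of all tested genes). The higher ones were Sult1a1, Tek, Pdzk1ip1, Vwf and Plxdc2, the last of which was named after its values were seen. Sult1a1, a sulfotransferase, was 8.26 and 8.39 in SLAM and 6.40 to 6.85 in KLS (1.65 ± 0.27, adjusted p = 0.00577). Tek, which binds angiopoietin and is known in stem cells and endothelium, was 7.73 and 7.37 in SLAM and 5.58 to 6.33 in KLS (1.50 ± 0.31, adjusted p = 0.0202). Pdzk1ip1 was 8.78 and 8.78 in SLAM and 7.30 to 7.64 in KLS (1.32 ± 0.23, adjusted p = 0.00758). Vwf, the von Willebrand factor of megakaryocyte-biased stem cells, was 7.56 and 7.73 in SLAM and 6.47 to 6.58 in KLS (1.14 ± 0.21, adjusted p = 0.0117), and Plxdc2 differed by 1.37 ± 0.31 (adjusted p = 0.0272). No member of this group overlapped. Of these 5, only Sult1a1 passed without SLAM replicate 1 (adjusted p = 0.0472), where Plxdc2 was 0.83, and only Plxdc2 passed without replicate 2 (1.91, adjusted p = 0.0325).

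The lower stem cell genes were both transporters. Slc22a3, an organic cation transporter, was 6.11 and 6.21 in SLAM and 8.24, 8.0, 8.24 and 8.25 in KLS (-2.02 ± 0.33, adjusted p = 0.00653). Abcb1b, a multidrug efflux pump, was 6.39 and 6.54 in SLAM and 7.52 to 7.72 in KLS (-1.17 ± 0.30, adjusted p = 0.0485). Neither overlapped between groups, and their direction was opposite to most of their list; both calls were lost with either SLAM array left out (adjusted p 0.052 to 0.0602 for Slc22a3 and 0.209 to 0.252 for Abcb1b). Slc22a3 belongs to the imprinted genes as well, of which 2 of 17 were higher and 1 lower (beside 0.35% and 2.77% of all tested genes). The higher imprinted genes were Meg3, a long non-coding RNA (1.30 ± 0.28, adjusted p = 0.0232), and Grb10, a signalling adaptor (1.07 ± 0.28, adjusted p = 0.0483), and with either SLAM array left out neither passed (adjusted p 0.0772 to 0.305).

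**Figure D4:**
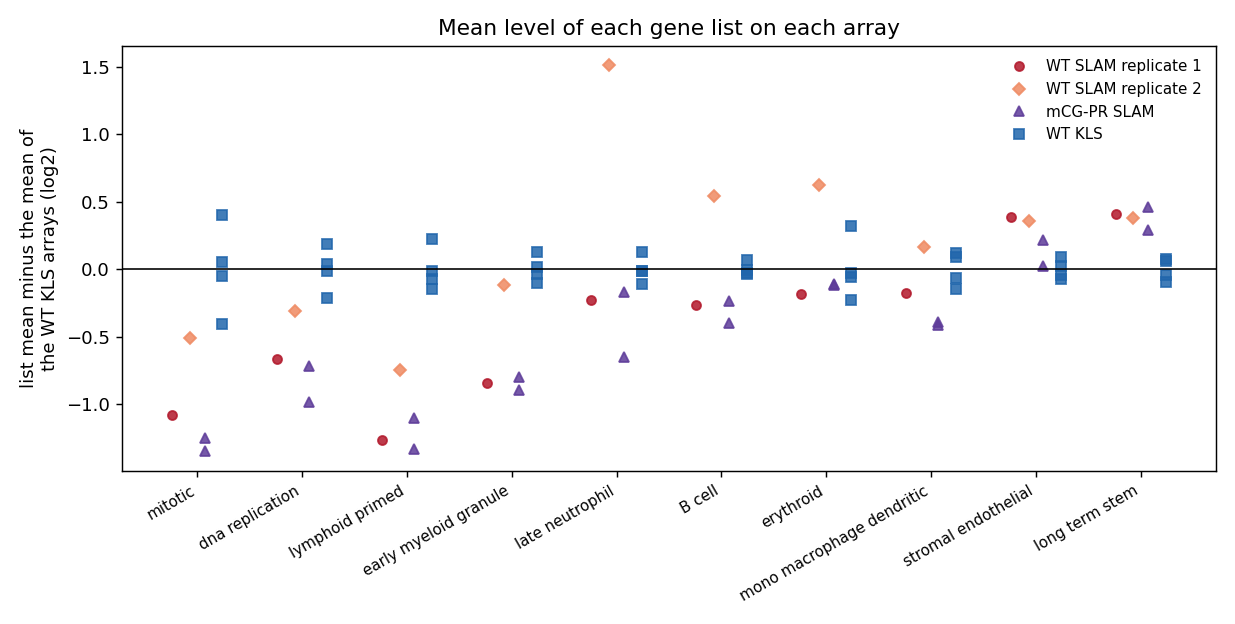
Mean log2 level of 10 gene lists on each array, less the mean of the WT KLS arrays, for WT SLAM replicates 1 and 2, mCG-PR SLAM (n = 2) and WT KLS (n = 4). Long-term stem and stromal or endothelial lists are above the KLS arrays on both WT SLAM arrays, mitotic and lymphoid-primed lists below, and replicate 2 is above all other arrays shown for late neutrophil and B cell genes.

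Markers of other cells moved with 1 array. Late neutrophil genes had a mean log2 level of 7.53 on WT SLAM replicate 1 and 9.27 on replicate 2, against 7.65 to 7.89 on the WT KLS arrays. Their summed intensity was 10488 and 31056 in SLAM and 10218 to 13033 in KLS. Mmp8, a neutrophil collagenase, was 6.45 and 9.72 in SLAM and 5.57 to 6.74 in KLS, and Camp, a granule peptide, 9.24 and 10.75 against 8.34 to 9.24. None of the 20 neutrophil genes passed in limma with the weights, and 6 had an unadjusted p under 0.05, all higher (beside 3.91% of all tested genes). With no weights 1 passed and with separate errors 0 (beside 11.6% and 1.34% of all tested genes in either direction). The list median was 0.49 with both SLAM arrays, 1.38 without replicate 1 and -0.26 without replicate 2. B cell genes had a mean of 6.41 and 7.22 in SLAM and 6.64 to 6.74 in KLS, and erythroid genes 6.68 and 7.48 against 6.63 to 7.18. Neither list had a gene that passed. At an unadjusted p under 0.05 in limma were 1 of 8 and 2 of 18 tested genes, beside 17.8% of all tested genes. Replicate 2 also had the higher mitotic mean (6.93, beside 6.36 for replicate 1, 7.03 to 7.84 in KLS) and early myeloid mean (7.94, beside 7.21, and 7.95 to 8.18 in KLS). Mitotic and replication medians were -0.48 and -0.25 without replicate 1 and -0.94 and -0.68 without replicate 2. The part of other cells in the WT differences was not tested.

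The mean of the stromal and endothelial genes was higher on both SLAM arrays, at 7.18 and 7.15 against 6.72 to 6.88 in KLS. Of 21 tested, 3 were higher (beside 0.35% of all tested genes) and 0 lower, with a median of 0.42 that was 0.27 without SLAM replicate 1. The members were mixed, with 15 positive and 6 negative differences. Above all KLS arrays lay 9 (42.9%, beside 12.9% of all tested genes) and below them 3 (14.3%, beside 22.3%). The lowest were Pdgfrb at -0.82 and Pecam1 at -0.79, which did not pass. Sparc, a matrix protein, was 8.86 and 7.56 in SLAM and 6.24 to 6.93 in KLS (1.64 ± 0.41, adjusted p = 0.0409), and was 0.99 without replicate 1 (adjusted p = 0.433). Ramp2, a receptor activity-modifying protein, was 6.61 and 7.84 in SLAM and 5.37 to 5.82 in KLS (1.54 ± 0.37, adjusted p = 0.0369), and was 0.92 without replicate 2 (adjusted p = 0.425). Tek is given above, and a further endothelial gene, Eng, was 8.17 and 8.30 against 7.11 to 7.58 without passing (0.87 ± 0.25, adjusted p = 0.0777). Whether other cells took part in these values was not tested.

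The remaining lists had few or no genes that passed, beside 0.35% higher and 2.77% lower of all tested genes. A single lower gene in a list of 29 to 34 is near that share. Interferon response genes had Isg20 higher (1.19 ± 0.27, adjusted p = 0.0285) and Parp14 lower (-1.68 ± 0.31, adjusted p = 0.0113) among 34. Smad2, a transducer of TGF-beta signals, was lower (-1.28 ± 0.25, adjusted p = 0.0149) among 29 genes of that pathway, and Pcgf5, a Polycomb subunit, was lower (-1.19 ± 0.29, adjusted p = 0.039) among 31 Polycomb and DNA methylation genes. With either SLAM array left out none of these 4 genes passed (adjusted p 0.0549 to 0.421), and Pcgf5 was -0.73 without replicate 1. None passed in limma among 19 Hox, Meis and Pbx genes, 32 Notch and Wnt genes, 21 p53 targets or 35 immediate early genes, of which 0, 7, 2 and 4 had an unadjusted p under 0.05 and 0, 5, 1 and 2 passed with no weights. Over all tested genes these shares were 17.8% and 11.6%. With separate errors 1 p53 target passed, Plk2 (1.50 ± 0.40). The last of these lists had a median of 0.18, and its mean was 7.71 and 7.68 in SLAM and 7.37 to 7.82 in KLS.

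The same contrast in mCG-PR mice used separate arrays from mice of 7 weeks (SLAM) and 6 weeks (KLS). Kdm5d and Eif2s3y, both Y-linked, averaged 4.28 and 4.23 in mCG-PR SLAM replicates 1 and 2. Among the KLS arrays of 6 weeks their mean was 4.53 for replicate 3 but 8.46 and 8.38 for replicates 1 and 2. It was 7.67 and 7.78 on the mCG-PR KLS arrays of 13 weeks and 7.93 to 8.48 on all 6 wild-type arrays. By these genes the sex of the mice was alike in the wild-type comparison, but varied with population in mCG-PR mice and between the genotypes of SLAM cells, and its part in the mCG-PR values and in the differences between genotypes was not tested. There 1387 genes passed (13.1%), 86 higher in SLAM and 1301 lower, with a median difference of -0.19 over all tested genes. The count was 397 and 508 with the first and the second mCG-PR SLAM array left out. Of the 37 genes higher in wild-type SLAM, 35 had a positive difference in mCG-PR and 13 passed as higher, beside 0.813% of tested genes. Of the 293 lower genes, 281 had a negative difference and 185 passed as lower, beside 12.3%. The same sign in both genotypes was found for 70.2% of all tested genes. The 198 genes that passed in both in the same direction were 60.0% of the wild-type and 14.3% of the mCG-PR calls. Both contrasts came from the joint fit and share its error estimate for each gene, so the calls are not independent. With the compared groups of each genotype fitted alone and without weights, 928 wild-type and 1579 mCG-PR genes passed. Of these, 404 passed in both in the same direction. Rras2, a small GTPase, was the gene that passed in opposite directions in the joint fit (-1.52 and 1.46), and it was named after its values were seen. Its wild-type difference was -1.67 without SLAM replicate 1 and -1.36 without replicate 2, and did not pass with either left out. Rras2 did not pass the direct test of the difference between genotypes given below.

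Serpina3g was 1.79 in mCG-PR cells (adjusted p = 0.000921), Dntt -6.14 (adjusted p = 8.49e-07), Cdk6 -3.24 (adjusted p = 0.000126) and Sult1a1 1.45 (adjusted p = 0.00389). Mitotic genes had a median of -1.86 in mCG-PR cells (beside -0.19 for all tested genes) and 37 of 47 passed as lower (beside 12.3%). In wild-type cells the median was -0.73 (beside -0.05) and 2 passed as lower (beside 2.77%). The wild-type median was -0.48 without SLAM replicate 1 and -0.94 without replicate 2. The KLS mice were of 6 weeks in the mCG-PR contrast and of 12 to 13 weeks in the wild-type contrast. The cause of the unlike medians was not tested. Copz2, Slfn2, Bex1 and Sparc, whose wild-type SLAM arrays were apart, had mCG-PR differences of 0.07, 0.10, 0.28 and -0.64, and none passed there. Parp14 was 0.03 and Isg20 -0.44 in mCG-PR cells. When the difference between genotypes was tested directly, 2 of 10575 genes passed (0.0189%), and 0 of the 330 wild-type genes were among them, although 73 had an unadjusted p under 0.05 (beside 8.41% of all tested genes). Without array weights 13 of the 330 passed that test and with the separate error 0.

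**Figure D5:**
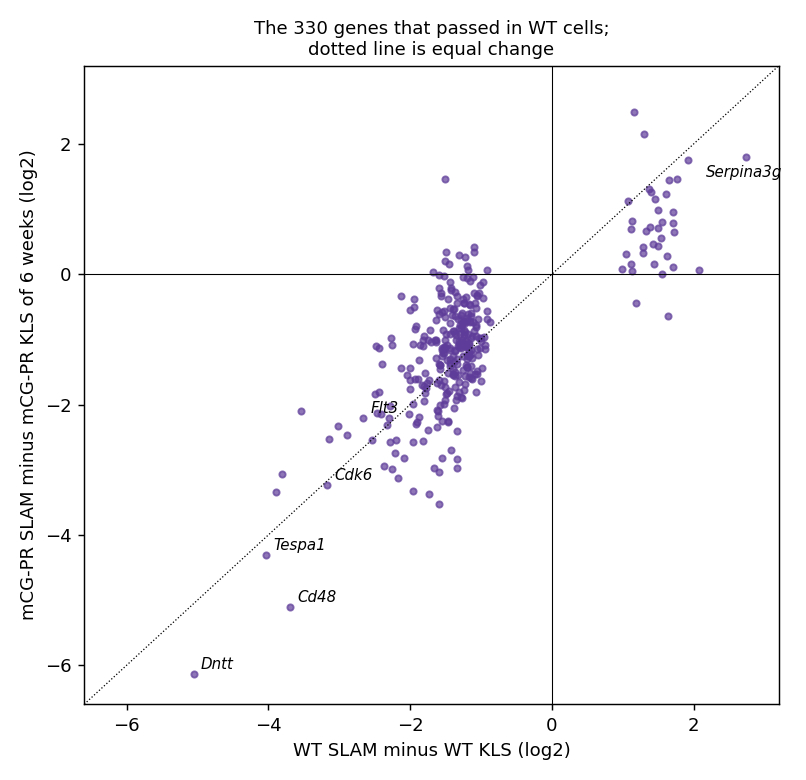
Difference between SLAM and KLS cells (log2) in wild-type mice against that in mCG-PR mice, for the 330 genes that passed in wild-type cells. Of these, 316 have the same sign in both genotypes, and Dntt (-5.05 and -6.14), Tespa1 and Cd48 lie farthest from the origin.

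Age was examined where the arrays allowed it, in groups of which the younger included the KLS array low in Y-linked genes. Between mCG-PR KLS cells of 13 and 6 weeks 1 gene passed, and 1264 had an unadjusted p under 0.05. Over the genes higher and lower in wild-type SLAM, the median difference of 13 minus 6 weeks was 0.08 and -0.26, beside -0.07 over all tested genes. The sign that would add to the wild-type difference was found for 16 of the 37 and 50 of the 293 genes. It reached at least 50% of the size of the wild-type difference for 0 and 2 of them, the 2 being Dzip1 and Fbp1, named after their values were seen. The share of all tested genes with such a sign was not counted. The mCG-PR cells carry the fusion and were all KLS here, so these values do not separate age from population in wild-type cells. The part of age in the wild-type differences was not tested. With the WT KLS arrays of 12 weeks alone, 220 genes passed, 181 of them among the 330.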

How the data were processed

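The deposited intensities covered 229581 probe sets on 13 arrays and were made by the authors with RMA, per the submitters' processing notes, which also name mm9. The sources used here give no RMA settings. The intensities were linear, so log2 was taken, with no further scaling. Probe sets annotated with 1 gene (208397) were used; 3965 with several and 17219 with none were not. Gene values were medians over at least 3 probe sets (15107 genes, median 11), with 14132 symbols current in the RefSeq table, 2124 updated and 43 absent. Genes above the 30th percentile of mean level over all 13 arrays (log2 6.00) were tested.

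limma 3.58.1 in R 4.3.3 fitted 5 groups on all 13 arrays, two-sided, with array weights by sorted population and Benjamini-Hochberg adjustment. The fit was tested on simulated data with a like spread; more calls there were false than the threshold states, fewer with weights than without and fewest with separate errors. Members and the 33 gene lists (1194 entries, 983 measured) were chosen with earlier results of these data known. Genes named were the 12 largest passing differences in each direction (2 predicted ones were counted and not named), 4 with the smallest p per list, and the sort panel. Replicates were separate mice, and their number limits the precision. Alternatives were array weights, filters, probe set summary, scaling, a replicate block, arrays left out and, added after seeing the data, separate errors.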

Additional observations from a re-analysis of the deposited data

Results flagged for a closer look

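In the WT KLS group (n = 4) 142 genes and 33 list means were examined for an array far from the other 3; chance marks about 1 in 20 groups. Igf2bp2 was 6.10 on replicate 4 with the others at 5.17 to 5.30. Cdk6 was 10.71 on replicate 1 with the others at 10.25 to 10.29. Slc22a3 was 8.0 on replicate 2 with the others at 8.24 to 8.25. Vpreb3, a chain of the pre-B cell receptor, was 5.38 on replicate 3 with the others at 5.96 to 6.07. Cd2, a T and NK cell adhesion receptor, was 5.49 on replicate 2 with the others at 6.06 to 6.14. Ramp2 was 5.37 on replicate 1 with the others at 5.75 to 5.82. Pcgf6, a Polycomb subunit, was 7.42 on replicate 1 with the others at 7.91 to 7.99.

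The change from KLS to SLAM differed between genotypes for 2 genes by limma's interaction test. Y-linked genes were low on both mCG-PR SLAM arrays (mean 4.28 and 4.23) and on 1 of the 3 mCG-PR KLS arrays of 6 weeks (4.53), and high on all wild-type arrays (7.93 to 8.48), so sex varied with genotype and population here and its part was not tested. Fkbp7, an endoplasmic reticulum prolyl isomerase, differed by 1.32 in wild-type and -2.23 in mCG-PR cells, a difference of 3.55 ± 0.50 (adjusted p = 0.0385). Ogfrl1 differed by 0.22 and -2.77, a difference of 2.99 ± 0.46 (adjusted p = 0.0469).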

How the results depend on the processing

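Of 54 named genes that passed, none changed direction in any alternative. Their groups did not overlap, so arrays left out, weights, filters and error models could not reverse them. Only scaling, probe set means and the replicate block could have done so. With both SLAM arrays kept, between 29 (separate errors) and 54 (no array weights) passed, and fewer with 1 SLAM array left out. The wild-type counts, 330 in all with 37 higher and 293 lower, became 1229 (254 and 975) with no array weights, 928 (166 and 762) with the compared groups alone, 531 (68 and 463) with means of probe sets, 119 (24 and 95) with quantile normalisation and 142 (24 and 118) with separate errors, an alternative chosen after seeing the data. The higher count was 24 with the 50th percentile filter and 22 with WT KLS replicates 3 and 4 alone. With 1 array left out the counts ran from 94 to 334, 11 to 42 and 77 to 305, and the lowest came without a SLAM array. With the replicate number as a block 189 genes passed (34 and 155); same-numbered arrays shared only a number, with correlations of deviations of 0.00975 and -0.0185. The mCG-PR count of 1387 became 2394 with no weights, 511 with quantile normalisation and 397 to 1515 with 1 array left out.

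The 2 genes whose change differed between genotypes became 106 with no weights and 31 with the compared groups alone. They became 1 with the 50th percentile filter, means of probe sets or at least 1 probe set, and 0 with a weight for each array, no filter, quantile normalisation, separate errors or WT KLS replicates 3 and 4 alone, and ran from 0 to 5 with 1 array left out. The cause of these shifts was not tested.

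The named genes that reversed were ones that did not pass. For arrays left out this follows from the lack of overlap in the genes that passed. With 1 array left out, the range was -2.24 to 0.23 for Tfrc, -0.13 to 1.00 for Cd79a, -0.36 to 1.63 for Vpreb3, -0.26 to 0.95 for Cd79b, -0.29 to 1.40 for Prss34, -1.60 to 0.13 for Ercc5, -4.10 to 0.08 for Pcgf6, -1.09 to 0.58 for H2az2, -0.09 to 0.13 for H2bc18, -0.01 to 1.56 for H2-Eb1, -0.91 to 0.21 for Kdm5d, -0.28 to 0.29 for Eif2s3y and -0.74 to 0.14 for Ly6a. With means of probe sets Hoxa5 was 0.16, Ly6a 0.35 and Eif2s3y -0.20, and with the replicate block H2bc18 was -0.04 and Eif2s3y -0.92. Of the list medians, 522 values stayed within the spread and 72 moved beyond it.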
